A study of Mus musculus with 19 samples.

Results

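The SLC25 genes encode the mitochondrial carrier family, and they were taken as every gene of the expression table whose symbol is Slc25a followed by a number: 46 of 29726 genes. Heart RNA was sequenced from 19 mice that had been germ-free, with oligo(dT)-selected libraries made from a piece of frozen cardiac tissue. All were wild-type C57BL/6NTac animals, 2 months old. The groups were 4 males and 5 females given a normal microbiome, and 5 males and 5 females given a dysbiotic one. The normal microbiomes came from wild-type donors and the dysbiotic ones from Il10-/- donors, which lack interleukin 10. The labels name the recipients' genotype as WT and the treatment as a fecal transplant, and they give no cage, litter or library batch. A difference between microbiomes therefore cannot be told apart from one of cage or batch that follows the groups, and p-values measure the spread between these mice.

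SLC25 proteins sit mostly in the inner mitochondrial membrane and exchange metabolites between the cytosol and the matrix. In heart muscle the adenine nucleotide translocases export the ATP made by oxidative phosphorylation, the phosphate carrier supplies the phosphate for it, and the carnitine carrier brings in fatty acyl groups. Other members move amino acids, Krebs cycle intermediates, cofactors, nucleotides and iron, and for several the substrate is not settled.

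Values are FPKM, fragments per kilobase of transcript, scaled to the size of the library, so levels can be compared between genes per length. Changes are differences of log2(FPKM + 1), dysbiotic minus normal, with their SE, and they understate the change of genes near 1 FPKM. Tests were two-sided, by limma with the Benjamini-Hochberg adjustment over the 10866 genes that reached 1 FPKM in at least 4 libraries, and a gene is called when its adjusted p is under 0.05. Of the 46 members, 34 passed this filter and 12 did not.

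The libraries summed to between 593310 and 656300 FPKM, of which genes of the mitochondrial genome held 51.1% to 57.4%, and 9932 to 10574 genes reached 1 FPKM in a library. The table holds no read counts, so the depth behind a value is unknown. The labels give the cell type as cardiocytes. The 7 cardiomyocyte markers were all present and summed to between 7877 and 10730 FPKM, with Myh6 highest. Markers of fibroblasts (119 to 139 FPKM summed), endothelial cells (86.2 to 107) and macrophages (88.6 to 128) were present in every group too, as in whole tissue. In such bulk samples, fewer cells of a type and less RNA per cell cannot be told apart. The 4 atrial markers summed to between 1373 and 4169 FPKM. Their median sums were 2231 FPKM in normal and 2552 in dysbiotic males, and 2066 and 2524 in females, with overlapping ranges. The part of atrial tissue in the members' values was not tested. The hepatocyte markers summed to between 0.299 and 714 FPKM, and their values are given with the members that moved with them.

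The family was dominated by a few carriers. Slc25a4, the heart and muscle adenine nucleotide translocase, averaged 1215 FPKM over the 19 hearts and ranged from 1022 to 1463. It made up 60.1% to 64.9% of the summed FPKM of the family. Slc25a3, the phosphate carrier, followed at 191 FPKM (176 to 225), then Slc25a11, the oxoglutarate-malate carrier of the malate-aspartate shuttle, at 156 FPKM (144 to 177), and Slc25a5, the second translocase, at 116 FPKM (100.5 to 130). These 4 genes held 85.1% to 88.2% of the family's FPKM in every heart. The ranges of Slc25a3 and Slc25a11 overlapped slightly, whereas those of Slc25a11 and Slc25a5 did not.

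Below them came Slc25a34, an orphan carrier of unsettled substrate, at 48.5 FPKM (38.6 to 60.0). Slc25a20, the carnitine-acylcarnitine carrier of fatty acid oxidation, averaged 30.0 FPKM (25.3 to 36.0), and Slc25a39, which is needed for glutathione import, 28.6 FPKM (24.3 to 32.8). Slc25a12, an aspartate-glutamate carrier of the malate-aspartate shuttle, averaged 25.1 FPKM (23.1 to 27.0). The ranges of Slc25a20, Slc25a39 and Slc25a12 overlapped. Within each heart Slc25a20 stood above Slc25a12, whereas the place of Slc25a39 relative to either varied between hearts. In all, 4 members averaged over 100 FPKM, 7 lay between 10 and 100, 22 between 1 and 10, and 13 under 1.

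**Figure D1:**
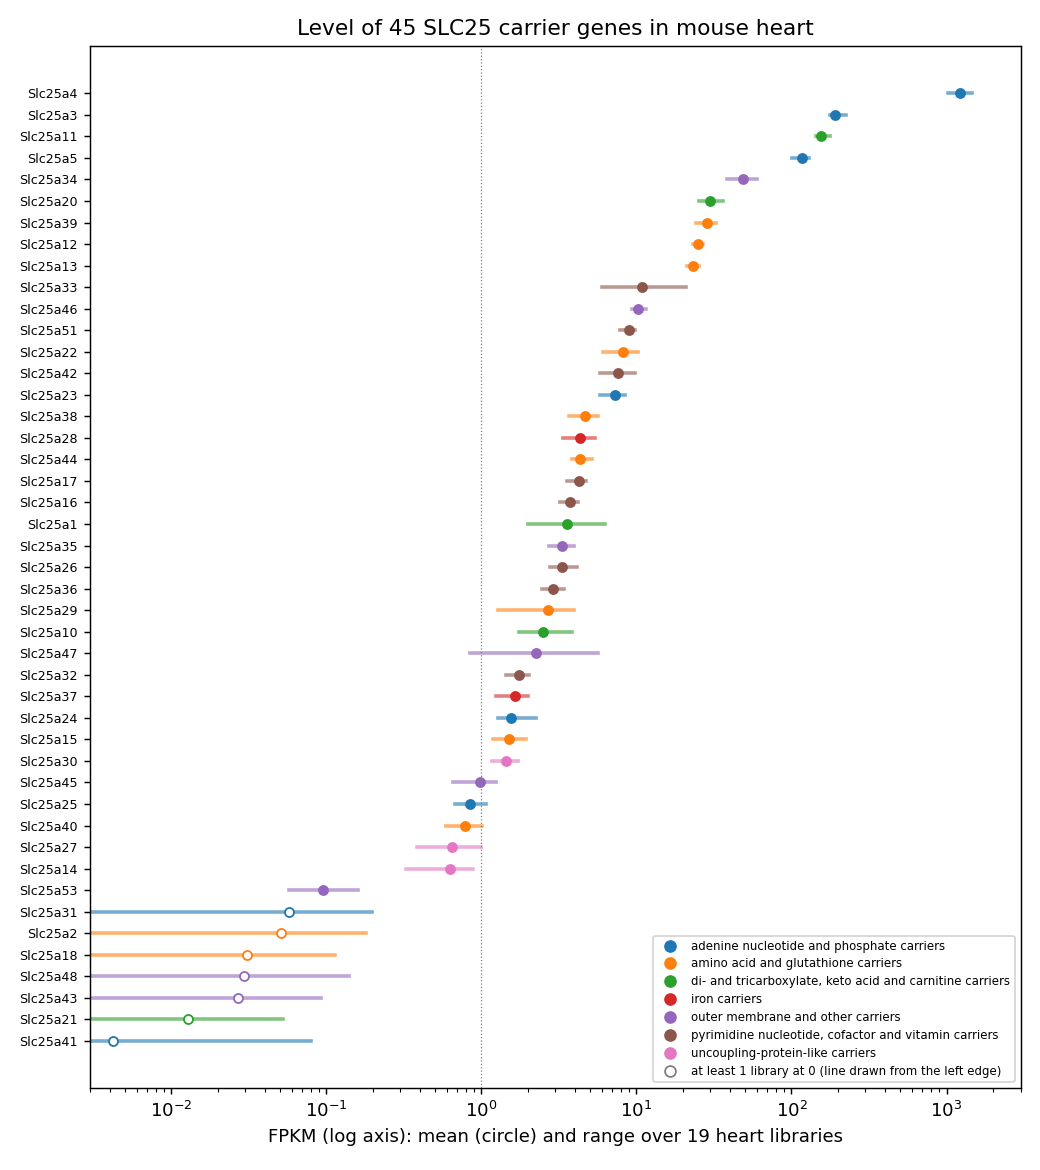
Mean (circle) and range (line) of 45 of the 46 SLC25 genes over 19 heart libraries, in FPKM on a log axis, coloured by the substrate class of the carrier. Slc25a4 stands at 1215 FPKM, 13 genes lie left of the dotted line at 1 FPKM, and open circles mark genes with at least 1 library at 0.

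The 13 low members included Slc25a45, which averaged 0.975 FPKM, reached 1 FPKM in 8 hearts and was tested. The 12 that were not tested fell into 2 kinds. Slc25a25, a calcium-regulated ATP-Mg/phosphate carrier, ranged from 0.676 to 1.07 FPKM. Slc25a40, a relative of Slc25a39, ranged from 0.593 to 1.01 FPKM, Slc25a27, an uncoupling-protein-like carrier of nervous tissue, from 0.385 to 0.994 FPKM, and Slc25a14, another of that class, from 0.326 to 0.888 FPKM. Slc25a53, an orphan, ranged from 0.0573 to 0.16 FPKM. These 5 were at 0 in no heart, and 7 others were listed at 0 in some. Slc25a31, the translocase of the male germ line, was listed at 0 in 8 hearts and reached 0.199 FPKM, and Slc25a2, an ornithine carrier, was at 0 in 6 and reached 0.181 FPKM. Slc25a18, a glutamate carrier of brain, was at 0 in 10 hearts (highest 0.113 FPKM), Slc25a48 in 8 (0.141), Slc25a43 in 8 (0.0925) and Slc25a21, the oxodicarboxylate carrier, in 9 (0.0525). Slc25a41 was above 0 in 1 heart, a normal male, at 0.0797 FPKM.

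Each of the 5 untested members with values in every heart was compared within each sex by an exact permutation test of log2 FPKM, 10 tests in all. Slc25a25 averaged 0.765 ± 0.083 FPKM (SD, n = 5) in normal females and 0.915 ± 0.0934 FPKM (n = 5) in dysbiotic females, a two-sided exact p of 0.0317 that became 0.318 after adjustment over the 10. The other 9 exact p-values ran from 0.206 to 1, where 5 against 5 hearts, or 4 against 5, allow no p below 0.00794. None of these 5 therefore passed between microbiomes, and the 7 listed at 0 in some hearts were not compared by this test. An exon of Slc25a25 overlaps Naif1, annotated on the opposite strand, which averaged 0.761 FPKM in normal and 0.870 FPKM in dysbiotic females. The strand setting of the counting is not given, so reads of Slc25a25 and Naif1 cannot be told apart there. With no expression filter, 9 members were called between the sexes, all higher in females and Slc25a27 among them, beside 3182 of all 29726 genes.

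Dysbiotic and normal hearts were compared over both sexes first, 10 hearts against 9. Of the 34 tested members, 3 were called higher and 1 lower, where 3.34% of all tested genes were called higher and 2.33% lower, 5.67% in all. With median-ratio scaling the table as a whole had 364 genes higher and 399 lower in place of 363 and 253, while the members' calls were the same 4 genes. Slc25a42, Slc25a29 and Slc25a23 rose and Slc25a33 fell. Of the 34 members, 26 had coefficients under 0.1 in size, a share that was not counted for all tested genes. With signs kept, the median coefficient was 0.03 over the members and 0.02 over all tested genes. At an unadjusted p under 0.05 there were 6 members, and 17.4% of all tested genes. Members and gene lists were chosen with earlier results of these data known, so these counts are descriptions of the family.

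The promoters of the called genes are shown because these 4 are the members that differed between microbiomes. Each is the stretch before the RefSeq start on the minus strand of GRCm38, at most 250 bases, written in the direction of transcription. Sequences are from RefSeq. The intervals are chr4:149774268-149774517 for Slc25a33, chr8:70212282-70212531 for Slc25a42, chr12:108835877-108836045 for Slc25a29 and chr17:57059864-57060113 for Slc25a23. The Slc25a29 stretch is 169 bases long because an exon of Slc25a47 begins there. Capitals mark matches on either strand to CCAAT, the box bound by NF-Y, to CACGTG, an E-box, to CGTCA, a cyclic AMP response element core, and to AGGTCA, a nuclear receptor binding core.
Slc25a33: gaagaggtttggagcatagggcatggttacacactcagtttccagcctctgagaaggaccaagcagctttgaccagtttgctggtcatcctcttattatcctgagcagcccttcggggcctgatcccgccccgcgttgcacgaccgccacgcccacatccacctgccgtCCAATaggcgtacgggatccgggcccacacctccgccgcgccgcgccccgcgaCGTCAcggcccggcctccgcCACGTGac
Slc25a42: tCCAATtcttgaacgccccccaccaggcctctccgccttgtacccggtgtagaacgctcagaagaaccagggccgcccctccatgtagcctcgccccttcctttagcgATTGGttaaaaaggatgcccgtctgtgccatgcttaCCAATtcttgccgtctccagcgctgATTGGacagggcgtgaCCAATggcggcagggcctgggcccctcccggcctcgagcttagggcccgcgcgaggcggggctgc
Slc25a29: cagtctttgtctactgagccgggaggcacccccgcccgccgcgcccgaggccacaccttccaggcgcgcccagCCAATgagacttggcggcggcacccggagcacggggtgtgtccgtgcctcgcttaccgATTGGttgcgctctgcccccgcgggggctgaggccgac
Slc25a23: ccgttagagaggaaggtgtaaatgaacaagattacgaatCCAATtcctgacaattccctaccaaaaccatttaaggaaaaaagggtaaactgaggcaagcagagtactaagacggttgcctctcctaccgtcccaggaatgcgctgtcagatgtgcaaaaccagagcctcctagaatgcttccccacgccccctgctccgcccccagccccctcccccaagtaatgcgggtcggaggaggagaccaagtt

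CCAAT in either orientation occurred 5 times in the Slc25a42 stretch, 2 times in that of Slc25a29, and once each in those of Slc25a33 and Slc25a23. Among 7919 promoters of tested genes with 250 upstream bases, 36.4% hold that motif. It was found in 16 of the 35 members with a promoter in the RefSeq table. Slc25a33 alone of the 4 held CGTCA (28.1% of those promoters) and CACGTG (8.71%), whose first bases lay 28 and 8 bases before the RefSeq start. The last 10 bases of the Slc25a33 stretch, which hold CACGTG, lie in an exon of the gene itself in GENCODE, as do the last 24 of Slc25a42 and the last 7 of Slc25a29, which hold no marked match. AGGTCA (10.6%) matched in none of the 4. No marked matches overlapped. The letters were searched after the sequences had been seen, and a match is a description of the sequence.

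Slc25a33, a pyrimidine nucleotide carrier known from human cells to bring UTP and related nucleotides into mitochondria for their RNA and DNA, lies at chr4:149744036-149774277 on the minus strand of GRCm38. Normal males stood at 9.60, 8.69, 7.50 and 11.2 FPKM and dysbiotic males at 6.00, 6.02, 6.60, 6.48 and 6.92 FPKM. Normal females stood at 18.8, 14.7, 16.9, 20.8 and 16.7 FPKM and dysbiotic females at 7.60, 9.24, 11.4, 10.1 and 9.84 FPKM. Every dysbiotic heart lay below every normal heart of its own sex, and the dysbiotic females stood at about the level of the normal males. The change over both sexes was -0.63 ± 0.07 (95% interval -0.78 to -0.48, adjusted p = 5.21e-05), and its size in FPKM was a ratio of group means of 0.693 in males and 0.548 in females. The gene was called in both sexes, at -0.46 ± 0.11 in males (adjusted p = 0.033) and -0.81 ± 0.10 in females (adjusted p = 0.000398). The difference between those responses was -0.35 ± 0.15 and did not pass (adjusted p = 0.597). In the authors' deposited table, which pools the sexes, its ratio was 0.578 with a q-value of 0.00168.

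Its closest relative, Slc25a36, which carries pyrimidine and guanine nucleotides, had a change of 0.00 ± 0.03 (95% interval -0.07 to 0.07), so that a change of the size seen for Slc25a33 lies outside its interval. An exon of Slc25a33 overlaps Gm13068, annotated on the opposite strand. The strand setting of the counting is not given in the sources used here, so reads of the pair cannot be told apart there, and Gm13068 itself reached at most 0.188 FPKM.

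Slc25a42, which carries coenzyme A into the matrix in exchange for adenine nucleotides, lies at chr8:70184340-70212305 on the minus strand. Normal males had 7.33, 5.79, 5.99 and 5.87 FPKM and dysbiotic males 7.42, 8.90, 6.82, 8.27 and 8.09 FPKM. Normal females had 6.39, 6.61, 6.54, 5.81 and 7.08 FPKM and dysbiotic females 9.48, 9.40, 8.44, 9.60 and 9.81 FPKM. The female groups did not overlap, and in males 1 normal heart, replicate 1, stood within the dysbiotic range. The gene rose by 0.38 ± 0.05 over both sexes (adjusted p = 0.000118), by 0.30 ± 0.07 in males (adjusted p = 0.0386) and by 0.47 ± 0.07 in females (adjusted p = 0.0012). The difference between the sexes in the response was 0.17 ± 0.10 (adjusted p = 0.76). The authors' deposited table gave a ratio of 1.35 and a q-value of 7.76e-08.

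Another 7 members of the cofactor class were tested, none of which passed over both sexes. They include Slc25a16, linked to coenzyme A as Slc25a42 is, at 0.04 ± 0.03, and Slc25a51, the mitochondrial NAD+ carrier, at 0.01 ± 0.04. Others among them carry folate (Slc25a32), S-adenosylmethionine (Slc25a26), peroxisomal cofactors (Slc25a17) and nucleotides (Slc25a36).

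Slc25a29, a carrier of basic amino acids such as arginine and lysine, lies at chr12:108825873-108835883 on the minus strand. Normal males had 1.97, 1.28, 1.61 and 2.01 FPKM and dysbiotic males 2.74, 3.07, 2.65, 2.14 and 3.21 FPKM. Normal females had 2.15, 3.12, 3.09, 2.75 and 3.11 FPKM and dysbiotic females 3.54, 3.94, 2.55, 3.13 and 2.94 FPKM. The male groups did not overlap, the female groups did, and most normal females stood at the level of the dysbiotic males. The gene rose by 0.30 ± 0.07 over both sexes (adjusted p = 0.0193) and by 0.47 ± 0.11 in males (adjusted p = 0.0322). In females the change was 0.13 ± 0.10 (adjusted p = 0.67), and the difference between the sexes did not pass (-0.34 ± 0.15, adjusted p = 0.641).

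The call of Slc25a29 over both sexes was lost without normal male replicate 2 (adjusted p = 0.0520), with no expression filter (0.0634) and with the replicate number as a block (0.0547). In the authors' deposited table its ratio was 1.28 with a q-value of 0.363. Slc25a47, the neighbouring carrier gene on the plus strand, starts 162 bases away and had a change of 0.10 ± 0.21 (95% interval -0.35 to 0.56).

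Of the other amino acid and glutathione carriers, none of the 7 tested passed between microbiomes. Slc25a12 stood at 0.00 (95% interval -0.06 to 0.07). Slc25a44, which carries branched-chain amino acids, stood at -0.08 ± 0.04 (adjusted p = 0.359) and Slc25a39 at 0.08 ± 0.05 (adjusted p = 0.476).

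Slc25a23, a calcium-regulated carrier that exchanges ATP-Mg for phosphate, lies at chr17:57043711-57059863 on the minus strand. Normal males had 8.24, 6.05, 5.92 and 6.09 FPKM and dysbiotic males 6.88, 7.78, 8.25, 7.28 and 7.69 FPKM. Normal females had 6.57, 7.09, 6.45, 5.81 and 7.20 FPKM and dysbiotic females 8.30, 8.50, 7.92, 7.74 and 7.74 FPKM. The female groups did not overlap, and among normal males replicate 1 stood with the highest dysbiotic hearts while the other 3 lay below all of them. The gene rose by 0.22 ± 0.05 over both sexes (adjusted p = 0.0163). Within 1 sex it did not pass, at 0.19 ± 0.08 in males (adjusted p = 0.261) and 0.25 ± 0.07 in females (adjusted p = 0.0707). The authors' deposited table gave a ratio of 1.18 and a q-value of 0.00467. Gm17168, which overlaps it on the opposite strand, reached at most 0.196 FPKM.

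**Figure D2:**
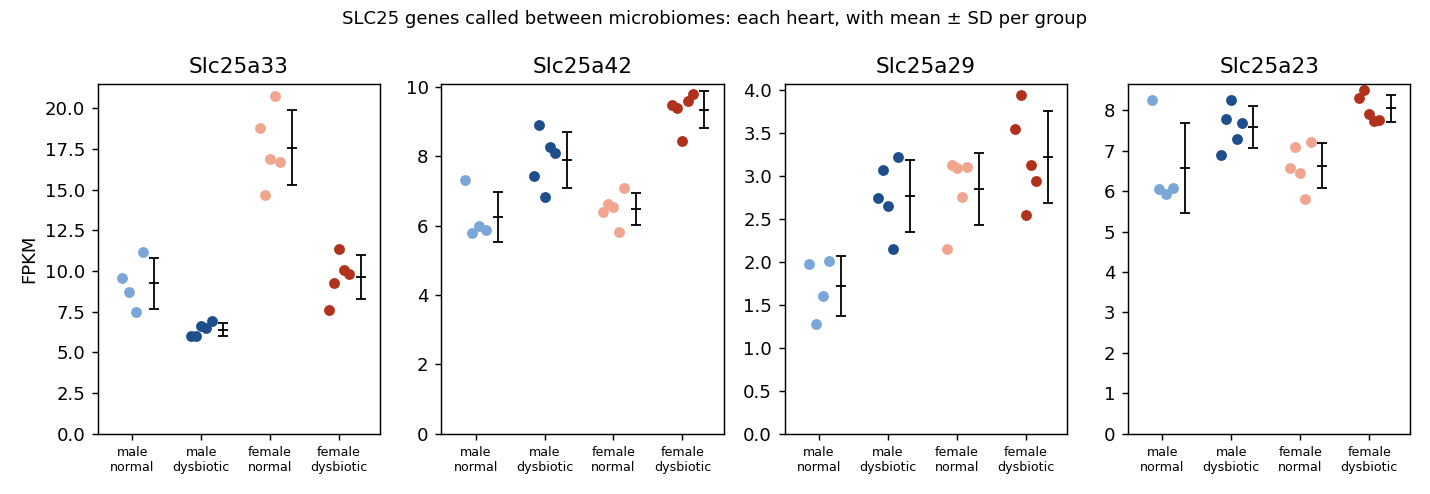
FPKM of the 4 SLC25 genes called between microbiomes in each heart (circles), with mean ± SD per group (black). Slc25a33 is lower in every dysbiotic heart than in any normal heart of the same sex, and the Slc25a42 females fall into separate ranges of 5.81 to 7.08 and 8.44 to 9.81 FPKM.

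The abundant energy carriers did not pass between microbiomes, and their intervals were narrow. Slc25a4 stood at 0.07 ± 0.05 (95% interval -0.04 to 0.18, adjusted p = 0.524), Slc25a3 at 0.01 ± 0.05 (-0.09 to 0.10) and Slc25a5 at -0.02 ± 0.05 (-0.12 to 0.09). Slc25a5 made up 7.65% to 9.97% of the FPKM of the translocases Slc25a4, Slc25a5 and Slc25a31. Slc25a24, the remaining tested member of the adenine nucleotide and phosphate class, was at 0.03 ± 0.05, so that Slc25a23 was the 1 of 5 that passed.

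Among carriers of di- and tricarboxylates, keto acids and carnitine, none of 4 passed. Slc25a20 was nearest, at 0.13 ± 0.04 (95% interval 0.03 to 0.22, adjusted p = 0.112), and it passed without normal female replicate 5 (adjusted p = 0.0479) or dysbiotic male replicate 3 (0.0455). Slc25a11 was at 0.04 ± 0.04 (-0.04 to 0.12). Slc25a1, the citrate carrier that feeds cytosolic lipid synthesis, had a wide interval (0.15 ± 0.18, -0.23 to 0.54). Its values were 5.02, 2.00, 2.36 and 2.47 FPKM in normal males and 5.14, 5.00, 3.49, 2.70 and 2.25 FPKM in dysbiotic males. In females they were 2.32, 3.17, 3.09, 3.62 and 6.18 FPKM with the normal and 3.11, 3.26, 3.26, 2.99 and 6.24 FPKM with the dysbiotic microbiome. A single heart stood high in each group except the dysbiotic males, where 2 did. The within-group SD of Slc25a1 on the log2 scale was 0.406, higher than that of 97.1% of tested genes. For the 34 tested members the median within-group SD was 0.108, beside 0.104 for all tested genes. Among these 34 it was lowest for Slc25a13, the other aspartate-glutamate carrier, at 0.0474.

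Neither iron carrier passed. Slc25a37, mitoferrin 1, which supplies iron for haem in red cell precursors, ranged from 1.38 to 1.57 FPKM in normal and from 1.59 to 2.00 FPKM in dysbiotic females, ranges that did not overlap. Its change over both sexes was 0.12 ± 0.04 (adjusted p = 0.124). Red blood cell markers summed to between 1222 and 1714 FPKM in normal and between 932 and 1222 FPKM in dysbiotic females, and their part in these values was not tested. Slc25a28, mitoferrin 2, was at 0.08 ± 0.05 (adjusted p = 0.399). Slc25a30, the tested uncoupling-protein-like carrier, was at -0.08 ± 0.05. Slc25a34 (-0.02 ± 0.04) and Slc25a46, an outer membrane protein of mitochondrial dynamics (-0.01 ± 0.03), had no called change either.

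**Figure D3:**
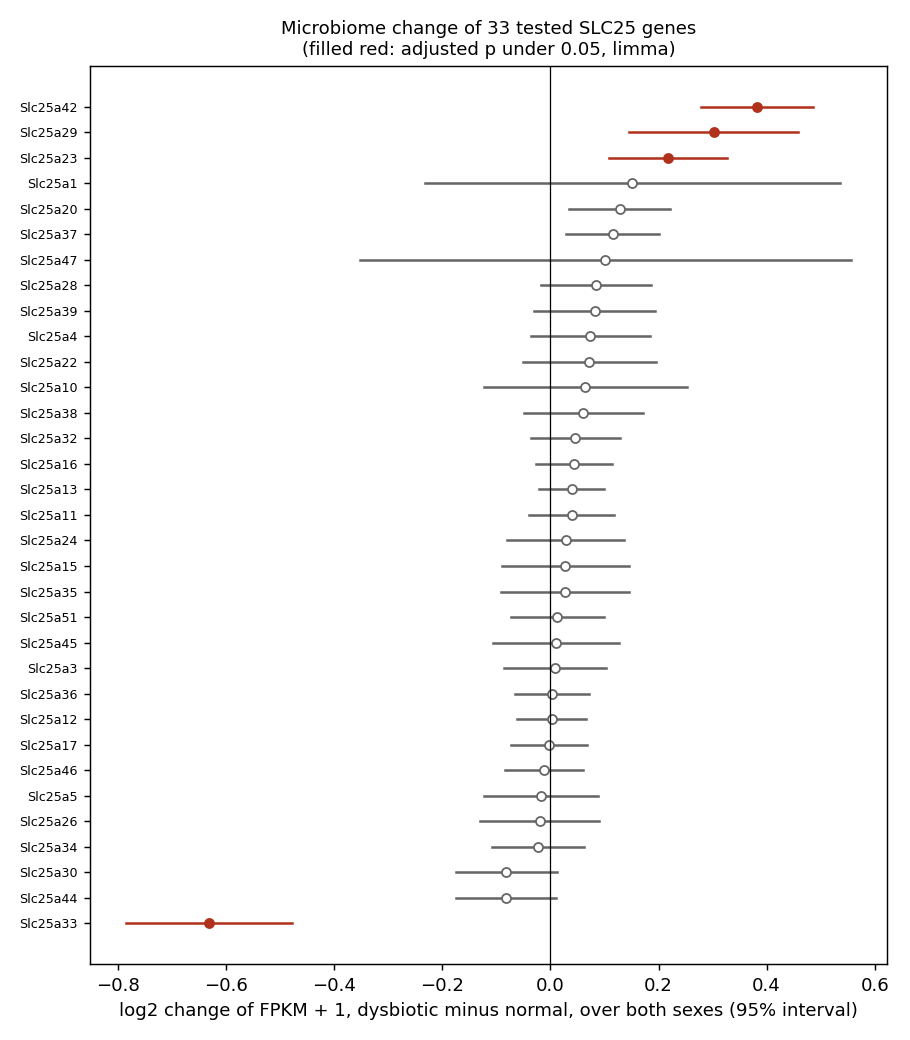
Change of log2(FPKM + 1), dysbiotic minus normal over both sexes, with its 95% interval, for 33 of the 34 tested SLC25 genes in order of the change. The 4 called genes are filled red, from Slc25a33 at -0.63 to Slc25a42 at 0.38, and Slc25a47 and Slc25a1 have the widest intervals.

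Within 1 sex fewer members were called. In males these were Slc25a33, Slc25a42 and Slc25a29, 3 of 34, where 1.91% of all tested genes were called, 0.957% higher and 0.948% lower. The male split of all tested genes, 104 higher and 103 lower, became 124 and 175 with median-ratio scaling and 22 and 47 when males were fitted alone. In females they were Slc25a33 and Slc25a42, 2 of 34, where 2.84% were called, 1.86% higher and 0.985% lower. Ranges of the groups did not overlap for 2 members in males, Slc25a29 and Slc25a33 (4.7% of all tested genes). They did not overlap for 4 members in females, Slc25a23, Slc25a33, Slc25a37 and Slc25a42 (4.85% of all tested genes). The sign of the change was the same in both sexes for 23 of 34 members, and its share over all tested genes was not counted.

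The male calls rested on few hearts. The number of members called in males was 0 when replicate 2 of either male group was left out, and 1 when any of replicates 3 and 4 of the normal males, or 1, 3 and 5 of the dysbiotic males, was left out. It was also 0 when the males were fitted alone. Without normal male replicate 1, Slc25a23, Slc25a29 and Slc25a42 were called in males and Slc25a33 was not (adjusted p = 0.0618). In females Slc25a33 and Slc25a42 were called under every alternative listed in the closing section.

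No member passed the test of the difference between the male and the female response, where 0.396% of all tested genes did, 0.377% with a more positive response in females and 0.0184% with a more negative one. After GC correction that split of all tested genes was 60 and 37 in place of 41 and 2. At an unadjusted p under 0.05 there were 5 members, Slc25a33, Slc25a29, Slc25a16, Slc25a17 and Slc25a36, beside 7.41% of all tested genes, and the smallest adjusted p was 0.415. All fits listed in the closing section, those with a heart left out included, gave 0 members.

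**Figure D4:**
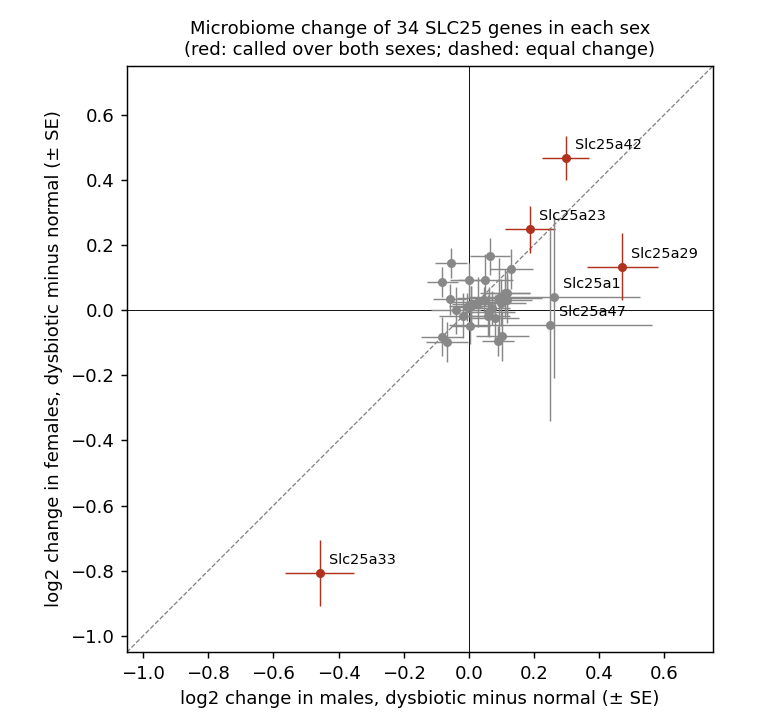
Change of log2(FPKM + 1) in males (horizontal) and females (vertical), dysbiotic minus normal, each with its SE, for the 34 tested SLC25 genes. The dashed line marks equal change, and Slc25a33 lies below it (-0.46 and -0.81) and Slc25a29 to its right (0.47 and 0.13).

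More members were called between the sexes than between the microbiomes, as was the case for all tested genes (3411 against 616). Of 34 members, 10 were called higher in females and 0 lower, where 31.4% of all tested genes were called, 23.4% higher and 7.94% lower. By class, the 10 were 5 of 8 amino acid and glutathione carriers (Slc25a13, Slc25a22, Slc25a29, Slc25a38 and Slc25a39), 2 of 9 of the pyrimidine, cofactor and vitamin class (Slc25a33 and Slc25a42), and Slc25a4, Slc25a28 and Slc25a34. The median difference, female minus male, was 0.04 over the members and 0.04 over all tested genes. With median-ratio or upper-quartile scaling of the libraries, the split was 7 higher and 4 lower, and Slc25a16, Slc25a20, Slc25a36 and Slc25a46 were the lower ones. For all tested genes it was 1765 higher and 1769 lower with median-ratio scaling, in place of 2548 and 863.

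Slc25a34 separated the sexes fully. It ranged from 38.6 to 46.0 FPKM in the 9 males (median 42.6) and from 51.7 to 60.0 FPKM in the 10 females (median 53.3), and it was the 1 member whose male and female ranges did not overlap (2.88% of all tested genes). The difference was 0.35 ± 0.04 (adjusted p = 4.67e-06). Its change between microbiomes did not pass, with group means of 42.3 FPKM in both male groups, and of 55.1 and 53.2 FPKM in normal and dysbiotic females.

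Slc25a33 had the largest difference, 0.69 ± 0.07 (adjusted p = 1.70e-06), from the values given above. Slc25a22, a mitochondrial glutamate carrier, averaged 6.88 FPKM in males with the normal and 7.18 with the dysbiotic microbiome, and 8.82 and 9.42 FPKM in the females (0.34 ± 0.06, adjusted p = 0.000292). Slc25a29 was higher by 0.33 ± 0.07 (adjusted p = 0.00242), Slc25a28 by 0.22 ± 0.05 (adjusted p = 0.00218) and Slc25a38, a glycine carrier for haem synthesis, by 0.21 ± 0.05 (adjusted p = 0.00463). The remaining called differences were of 0.18 or less, Slc25a39 (adjusted p = 0.0149), Slc25a4 (0.0386), Slc25a42 (0.0436) and Slc25a13 (0.00795). All these differences are means over both microbiomes. Slc25a29 averaged 1.72 FPKM in males and 2.84 in females with the normal microbiome, and 2.76 and 3.22 with the dysbiotic one. Slc25a42 averaged 6.24 and 6.49 FPKM with the normal and 7.90 and 9.35 with the dysbiotic one. The test of the difference between responses passed for neither.

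Several of these calls were near the threshold. That of Slc25a4 was lost in 17 of 31 alternatives, among them without any of 12 single hearts (adjusted p up to 0.0876). These were normal male replicates 1, 2 and 4, dysbiotic male replicates 1 to 4, normal female replicates 2 and 5 and dysbiotic female replicates 1 to 3. That of Slc25a42 was lost in 19, among them without any of 13 hearts (0.0544 to 0.0951). These were normal male replicates 2 to 4, dysbiotic male replicates 1 and 3, normal female replicates 1, 2, 3 and 5 and dysbiotic female replicates 1, 2, 4 and 5. Slc25a39 was lost after a correction for GC content (adjusted p = 0.234). Slc25a13 was not among the members called with median-ratio or upper-quartile scaling. The members called higher in females had a median GC content of 56.0% and those not called 48.4%, beside 53.8% and 49.4% for all genes called higher and not called. The part of GC content in these differences was not tested further. Cardiomyocyte markers summed to between 7877 and 10730 FPKM in males, with medians of 8244 (normal) and 8470 (dysbiotic). In females they summed to between 8637 and 9456 FPKM, with medians of 8999 (normal) and 9094 (dysbiotic). Adipocyte markers summed to between 3.67 and 27.5 FPKM in males and between 18 and 72.1 in females. The part of either kind of marker was not tested.

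Genes that work with the carriers were counted from lists. The shares of all tested genes were 5.67% called between microbiomes over both sexes, and 23.4% higher and 7.94% lower in females. Of 5 family genes under other symbols, the uncoupling proteins Ucp1 to Ucp3 and the outer membrane proteins Mtch1 and Mtch2, none passed between microbiomes. Ucp2 and Ucp3 were higher in females, by 0.51 ± 0.08 (adjusted p = 8.18e-05) and 0.50 ± 0.09 (adjusted p = 0.000291). Of 16 genes for importing carrier proteins through the TOM and TIM22 complexes, none passed between microbiomes, and 2 (Tomm40 and Timm29) were higher and 3 (Tomm70a, Tomm5 and Timm22) lower in females. Of 18 other mitochondrial transporters none passed between microbiomes, and 4 were higher and 2 lower in females. Another list of 16 held enzymes of the shuttles and of carnitine and citrate exchange, and also Ckmt2, Ppif, Nadk2 and Nmnat3. None of the 16 passed between microbiomes. Got1, the cytosolic enzyme of the malate-aspartate shuttle, was higher in females by 0.29 ± 0.03 (adjusted p = 1.7e-06).

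Of 11 tested genes of the PGC-1 axis, which drives mitochondrial biogenesis, 1 rose and 2 fell over both sexes. Of all tested genes, 3.34% were called higher and 2.33% lower. Within each sex, Ppargc1a alone of the 11 passed. Ppargc1a, the coactivator PGC-1α, fell by 1.06 ± 0.13 (adjusted p = 0.000127). The nuclear receptor gene Esrrg fell by 0.17 ± 0.05 (adjusted p = 0.0332) and its relative Esrrb rose by 0.16 ± 0.04 (adjusted p = 0.0407). Across the 19 hearts, after removing group means, the 4 called members were correlated with Ppargc1a, with 100000 permutations within groups. The r was -0.114 for Slc25a33 (Spearman's rho -0.147, permutation p = 0.725 and 0.597), -0.321 for Slc25a42 (rho -0.258, p = 0.284 and 0.332) and -0.153 for Slc25a29 (rho 0.02, p = 0.59 and 0.94). For Slc25a23 it was -0.648 (rho -0.519, p = 0.0421 and 0.0514), which adjusted over the 4 became 0.168 and 0.205. Its r was -0.459 without normal male replicates 1 and 2, the hearts farthest from the median of Ppargc1a. No relation passed the adjustment.

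Members that moved with liver transcripts were described after their values were seen. Alb, serum albumin, a defining product of hepatocytes, ranged from 0.0522 to 449 FPKM between hearts. It was under 1 FPKM in dysbiotic male replicate 5 and dysbiotic female replicates 3 and 5, and highest in normal male replicate 1. Slc25a47, a carrier that in mouse is made mainly in liver, was 5.69, 1.11, 1.35 and 2.30 FPKM in normal and 3.05, 3.11, 3.22, 3.23 and 1.84 FPKM in dysbiotic males. It was 0.85, 1.73, 1.49, 2.39 and 2.60 FPKM in normal and 3.09, 2.45, 1.08, 1.07 and 1.14 FPKM in dysbiotic females. Its values spread widely within each group, and its highest heart was the one with the highest Alb.

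After removing group means, Slc25a47 correlated with Alb at r = 0.717 (rho 0.802, permutation p = 2e-05 and 6e-05, adjusted over 34 members 0.00068 and 0.00204), and r was 0.755 without dysbiotic male replicate 5 and dysbiotic female replicate 5. Slc25a15, the ornithine carrier of the urea cycle, did so at r = 0.751 (rho 0.746, permutation p = 0.0002 and 0.00091, adjusted 0.0034 and 0.0155), and at 0.654 without those hearts. Slc25a45, an orphan, had r = 0.607 (rho 0.672, permutation p = 0.00467 and 0.00438, adjusted 0.0529 and 0.0496), and 0.705 without them. For the 4 called members r ran from -0.284 (Slc25a33) to 0.342 (Slc25a29), with adjusted permutation p-values of 0.606 to 0.892 for r. Without those 2 hearts r was 0.661 for Slc25a29, 0.373 for Slc25a42, 0.315 for Slc25a23 and -0.246 for Slc25a33, and these were not tested. Over both sexes the same 4 members were called without normal male replicate 1, dysbiotic male replicate 5 and dysbiotic female replicates 3 and 5, a setting added after seeing the data. In that setting Slc25a23, Slc25a29 and Slc25a42 were called in males, with Slc25a33 lost, and Slc25a23, Slc25a33 and Slc25a42 in females. Between the sexes 13 members were then called, all higher in females. The whole table leaned the same way there, with 3049 genes higher and 598 lower in females, in place of 2548 and 863. Its microbiome calls in that setting numbered 654 with the sexes combined (616 in the main fit), 228 for males (207) and 259 for females (309).

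**Figure D5:**
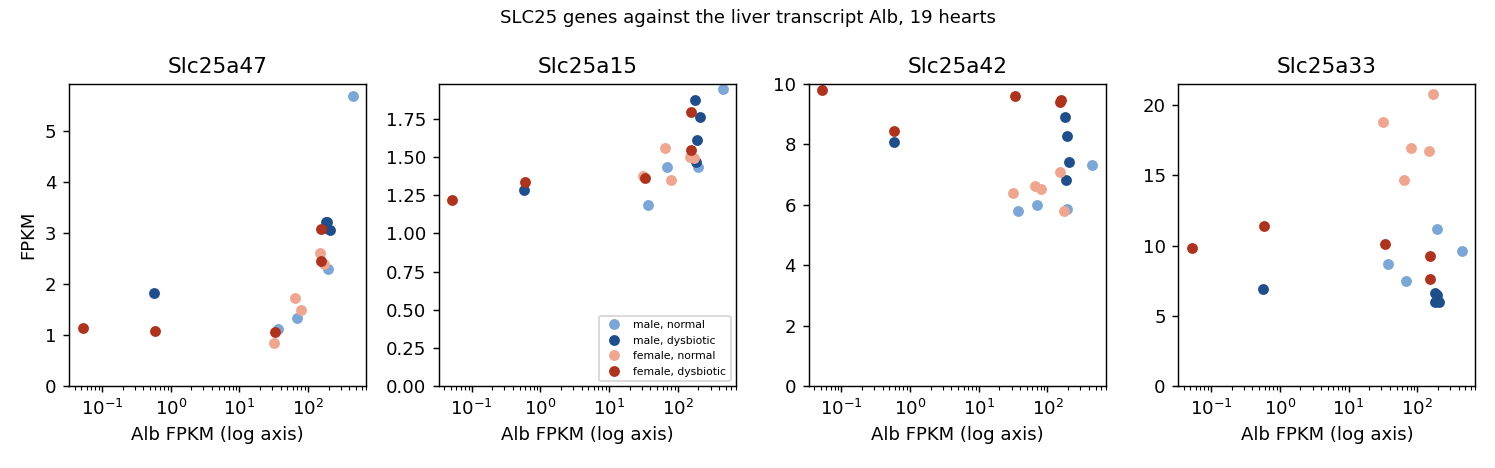
FPKM of Slc25a47, Slc25a15, Slc25a42 and Slc25a33 against FPKM of Alb (log axis) in each of the 19 hearts, coloured by group. Slc25a47 runs from 0.85 to 5.69 FPKM and is highest where Alb is highest (449 FPKM), while Slc25a33 is spread by group and sex.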

How the data were processed

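Sex and microbiome in the sample titles gave the groups. The tools were StringTie 1.3.4d, HISAT2 2.0.4, DESeq2 and cutadapt 1.9, per the submitters' processing notes, which give no order. The build stated there, hg38, is human, but GENCODE M21 held 99.7% of the gene IDs, which are of mouse, so that annotation on GRCm38 gave the coordinates. Per the file headers, the deposited values are FPKM per gene and library. The authors also deposited a ratio of mean FPKM, dysbiotic over normal with the sexes pooled, its log2 value, a p-value and a q-value.

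Here, log2(FPKM + 1) was fitted in a single limma-trend model of the 19 hearts with a mean for each group (limma 3.58.1, R 4.3.3, robust empirical Bayes). A gene entered it when 4 or more hearts had 1 FPKM or more. Contrasts were dysbiotic against normal over both sexes and in each sex, the difference of those responses, and female against male, adjusted by the Benjamini-Hochberg method with a threshold of 0.05. The contrast over both sexes was tried on simulated data with independent hearts and the same shift in males and females. The other contrasts were not tried in this way. Promoter sequences came from the RefSeq table for GRCm38, which held 35 of the 46 members. Tables and plots used pandas 2.3.3 and matplotlib 3.10.9 in Python 3.11.15.

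The members, lists and tests were chosen with earlier results of these data known. Members named with statistics are those called between microbiomes, the 8 with the highest level, the 6 with the smallest p between the sexes and the 3 nearest to the threshold over both sexes. Members under 1 FPKM are named with their range, and up to 3 genes of each list by smallest p. Others, such as Slc25a13, Slc25a1, Slc25a47 and Slc25a15, were named after their values were seen. Of the tested members, 1 member is not reported here by name and is counted only. Alternatives covered the filter, pseudocount, scaling, GC content, array weights, additive terms, each sex alone, the replicate number as a block and leaving out each library.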

Additional observations from a re-analysis of the deposited data

Results flagged for a closer look

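For the 17 members named by rule, 68 groups of 4 or 5 hearts were examined for a heart that stood apart from its group, and 6 groups had one. Chance gives about 1 in 20. Normal male replicate 1 stood apart in 3 of them. It had 7.327 FPKM of Slc25a42 where the other 3 normal males had 5.791 to 5.987, and 8.245 FPKM of Slc25a23 where they had 5.923 to 6.086. It had 28.62 FPKM of Slc25a39 where they had 24.28 to 24.68. This heart also had the highest Alb, 449 FPKM, and the highest Slc25a47, 5.69 FPKM, and the part of liver transcripts in its values was not tested.

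Dysbiotic female replicate 4 stood apart in 2 groups, with 57.19 FPKM of the orphan carrier Slc25a34 where the other 4 had 51.67 to 53.16, and with 26.77 FPKM of Slc25a39 where they had 31.25 to 32.83. Dysbiotic male replicate 5 had 225.1 FPKM of the phosphate carrier Slc25a3, where the other 4 had 176.2 to 179.4. Its cardiomyocyte markers had the highest sum of the 19 hearts, 10730 FPKM, its Alb was at 0.57 FPKM, and the part of either was not tested.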

How the results depend on the processing

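Of 31 results for named members, 23 kept their direction and side of the threshold under all alternatives, and none reversed. Over both sexes Slc25a33, Slc25a42 and Slc25a23 were called in all 31, and the count of members ran from 3 to 5 with 1 heart left out. The count of all tested genes called then ran from 444 to 676. In males the 3 members called became 0 with males fitted alone and 0 with no expression filter, and the 207 genes of the whole table became 69 and 97. Leaving out 1 heart gave 0 to 3 members and 60 to 258 genes in males, and 2 to 3 members and 167 to 357 genes in females. In females, array weights gave 4 members (Slc25a16 and Slc25a23 added) and 585 genes in place of 309, and GC correction 475 (251 higher and 224 lower in place of 202 and 107). For the difference between the responses, the 43 genes of the whole table became 97 with GC correction, 85 with array weights, 22 with no filter and 24 to 102 with 1 heart left out. Between the sexes, GC correction left 7 of the 10 members and leaving out a heart 8 to 11. For all tested genes, GC correction gave 3067 in place of 3411, and leaving out a heart 2830 to 3819. With median-ratio scaling the split of all genes in females was 215 higher and 177 lower. The causes of these changes were not tested.

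The labels do not say whether a replicate number pairs the hearts. Of 27 same-numbered pairs, 10 had deviations correlated over 0.1 (range -0.489 to 0.529), and 3 hearts correlated best with their own number. These correlations take all tested genes at once, so a smaller effect shared by same-numbered hearts could go unseen. With the number as a replicate block, 1 member (Slc25a33) and 106 genes were called in males. Over both sexes 3 members and 514 genes were called, and between the sexes 8 members and 3110 genes. The table gives no counts, so the precision of low members is unknown.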
